A study of Mus musculus with 12 samples.

Results

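The genes described here are 35 genes that mark Kupffer cells and other macrophages in bulk liver RNA. They were chosen by name. A gene counted where a probe set carried its symbol and no other; of several, the one with the highest mean would have been used. All 35 were found, each with exactly 1 such probe set, among 19937 genes with a single-symbol probe set. All 35 also passed the filter on low levels, which kept 17904 genes. They comprise 8 genes typical of resident Kupffer cells and 27 genes shared more widely among myeloid cells. RNA came from 12 male C57Bl/6 mice, 1 array per animal and 3 animals in each of 4 groups. These were Hdac6 knockout (HDAC6 Y/-) with dexamethasone, Hdac6 knockout with vehicle, wild type with dexamethasone, and wild type with vehicle. Dexamethasone, a synthetic glucocorticoid, was given at 1 mg/kg into the peritoneum over 3 weeks, and vehicle the same way. Hdac6 is an X-linked gene for a mainly cytoplasmic deacetylase. The labels describe no Cre, transgene or cell-restricted deletion, and give no age, hour of killing or time since the last injection. The design asks what the drug does in each genotype and whether loss of Hdac6 alters that.

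Kupffer cells are the macrophages that live in the liver sinusoids, where they are held in place and in identity by signals from hepatocytes, stellate cells and endothelium. They clear bacteria, old red cells and debris from portal blood through scavenger, complement and lectin receptors, and they depend on the growth factor receptor Csf1r. Glucocorticoids act on macrophages through the glucocorticoid receptor, which represses many inflammatory genes and induces others, the scavenger receptor Cd163 being a textbook example.

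Levels are the deposited log2 intensities, so that 1 unit is a factor of 2. Each change is dexamethasone minus vehicle or knockout minus wild type. Hdac6 itself was at 3.62 to 4.40 in the 6 knockout arrays and at 5.86 to 6.43 in the 6 wild-type arrays, and the induced gene Fkbp5 was at 10.31 to 10.66 in the 6 dexamethasone arrays and at 5.05 to 6.10 in the 6 vehicle arrays, with no overlap in either case. Transcripts of the exocrine pancreas were high in 4 arrays: knockout vehicle 3, wild-type dexamethasone 3, and wild-type vehicle 1 and 2. The mean over 14 pancreas genes was 7.51 to 9.63 in those 4 and 2.91 to 3.28 in the other 8. Only 1 wild-type vehicle array was free of them, so calls in wild type are also given without the 4 arrays. The mean of 9 hepatocyte genes stayed between 12.22 and 12.30 in all 12 arrays.

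Dexamethasone lowered none of these genes past the threshold in Hdac6 knockout livers, and lowered 20 of them in wild-type livers. In bulk RNA, fewer macrophages and less RNA per macrophage cannot be told apart. In the knockout, 3 of the 35 genes passed an adjusted p of 0.05, all as higher, where 8.29% of all genes passed (4.38% as higher and 3.92% as lower). At an unadjusted p under 0.05 in the same limma fit, 2 of the 35 were lower in the knockout (Lyz2 and Msr1), where 9.69% of all genes were. In wild-type livers, 22 of the 35 passed, the 20 as lower and 2 as higher, where 11.5% of all genes passed (6.95% as lower and 4.57% as higher). The 22 became 13 without wild-type vehicle 1 (12 as lower), 13 without wild-type dexamethasone 2 (11 as lower) and 2 without the 4 arrays with pancreas transcripts (both lower). Shares of all genes passing are not given, here or below, for fits with arrays left out. A drop in these counts therefore cannot be set against any general loss of calls. The median change over the 35 genes was -0.06 in knockout and -0.78 in wild-type livers. Over all genes the medians were -0.0090 in knockout and 0.01 in wild-type livers. In knockout livers every dexamethasone array lay below every vehicle array for 2 genes (Lyz2 and Ptprc), where 12.6% of all genes showed that, and above for 5 genes, where 11.7% did. In wild-type livers every dexamethasone array lay below every vehicle array for 27 genes, where 14.5% of all genes showed that, and 33 of the 35 changes were negative. The changes of the 20 genes lowered in wild-type livers ran from -0.67 (Lyz2) to 0.42 (Fgl2) in the knockout and from -1.55 (Cd5l) to -0.63 (Clec4f) in wild type.

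**Figure D1:**
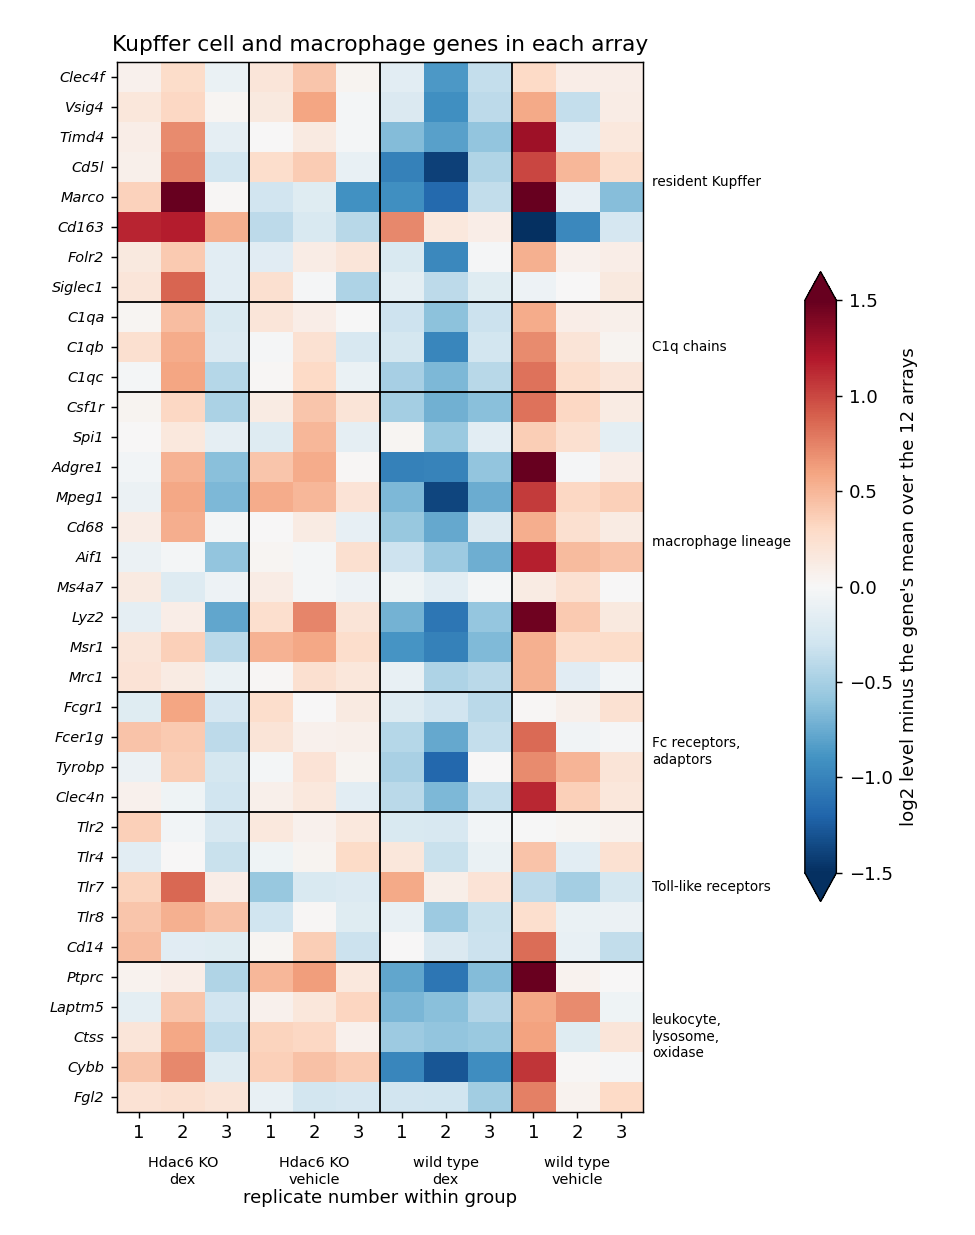
Level of each of the 35 genes in each of the 12 arrays, as the log2 difference from that gene's mean over all arrays (colour, saturated beyond 1.5 either way), with genes in rows by role and arrays in columns by group. The 3 wild-type dexamethasone columns are low for most rows, and Cd163 and Tlr7 are high in both dexamethasone groups.

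The difference between the genotypes' responses did not pass the threshold for any of the 35 genes, nor for any of the 17904 genes tested (0%). At an unadjusted p under 0.05, 19 of the 35 differed, all with the knockout response above the wild-type one, where 6.19% of all genes differed at that level (3.42% in that direction). Without the 4 arrays with pancreas transcripts the 19 became 7, again all in that direction. The knockout minus wild-type difference in response was positive for 34 of the 35, with a median of 0.80 (0.0016 over all genes; 0.57 for the 35 without the 4 arrays). A drop past the threshold in wild type and not in the knockout is therefore not shown, gene by gene, to differ between them.

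For 24 of the 35 genes the RefSeq table of GRCm38.p6 held promoter windows, 27 in all, each reaching from 250 bases before to 50 after a transcription start. They are shown because many of these genes moved together in wild-type livers. The letters searched, on both strands, included GAGGAA, the core recognised by the macrophage factor PU.1 (encoded by Spi1), and TGTTCT, a single arm of the glucocorticoid response element. GAGGAA was in 15 of the 27 windows (55.6%) and in 28.3% of 32851 windows of all genes. TGTTCT was in 11 of 27 (40.7%) and in 19.0% of all windows. The 2 windows of Ptprc overlap and hold the same TGTTCT match. Counted by gene, TGTTCT was in 10 of 24 (41.7%) and in 21.3% of all genes. These short strings were added after results for longer ones were known. The longer PU.1 string GAGGAAGT, which contains GAGGAA, was in 2 of 27 windows (C1qc and Ctss) and in 3.20% of all. The full glucocorticoid response element, which contains TGTTCT, was in 0 of 27 and in 0.00913% of all. The NF-kB consensus was in 0 of 27 (0.155% of all), the MAF string TGCTGAC in 1, Timd4 (4.67% of all), the C/EBP string TTGCNNCAA in 1, Cybb (2.08% of all), and TATAAA in 4 (13.6% of all). A match is a string of letters and no evidence of binding. Below are the 250 bases before the start for 5 genes, 5′ to 3′ on the gene's own strand. They stand for genes lowered in wild type, with GAGGAA alone (Cd5l) or both strings (C1qc and the leukocyte gene Laptm5). The others are a resident marker that missed the threshold (Vsig4) and a gene that rose in both genotypes (Cd163). Capitals mark GAGGAA or its reverse complement TTCCTC, and TGTTCT or its reverse complement AGAACA; no match of one overlaps the other.
Cd5l, chr3:87357631-87357880, plus strand: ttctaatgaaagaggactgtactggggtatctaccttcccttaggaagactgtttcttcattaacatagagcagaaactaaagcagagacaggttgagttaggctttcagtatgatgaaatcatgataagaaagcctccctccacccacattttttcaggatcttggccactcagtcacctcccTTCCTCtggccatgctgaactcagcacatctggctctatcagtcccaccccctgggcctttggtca
Vsig4, chrX:96293439-96293688, minus strand: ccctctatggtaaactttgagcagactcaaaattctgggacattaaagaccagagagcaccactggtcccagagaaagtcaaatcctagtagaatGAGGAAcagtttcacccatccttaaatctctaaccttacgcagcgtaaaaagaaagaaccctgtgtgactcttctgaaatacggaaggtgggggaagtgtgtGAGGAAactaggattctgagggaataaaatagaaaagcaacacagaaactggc
C1qc, chr4:136892915-136893164, minus strand: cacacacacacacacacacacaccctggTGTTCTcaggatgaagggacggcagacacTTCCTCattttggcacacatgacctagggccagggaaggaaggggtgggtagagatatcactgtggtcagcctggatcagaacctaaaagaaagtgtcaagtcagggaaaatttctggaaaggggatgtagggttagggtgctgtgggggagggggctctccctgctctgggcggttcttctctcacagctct
Laptm5, chr4:130913066-130913315, plus strand: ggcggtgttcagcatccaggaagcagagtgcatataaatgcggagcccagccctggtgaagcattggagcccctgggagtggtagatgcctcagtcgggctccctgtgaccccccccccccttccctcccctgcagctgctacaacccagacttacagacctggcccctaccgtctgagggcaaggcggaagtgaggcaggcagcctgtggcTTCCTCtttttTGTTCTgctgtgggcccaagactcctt
Cd163, chr6:124304401-124304650, plus strand: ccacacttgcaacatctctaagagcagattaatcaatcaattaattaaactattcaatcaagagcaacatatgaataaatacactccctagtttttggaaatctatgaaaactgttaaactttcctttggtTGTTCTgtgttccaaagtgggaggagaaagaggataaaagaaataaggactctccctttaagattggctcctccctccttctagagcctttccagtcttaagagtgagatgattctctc
In these stretches Cd5l had 1 match of GAGGAA, at bases -66 to -61 relative to the start, and Vsig4 had 2, at -155 to -150 and -53 to -48. Laptm5 had GAGGAA at -38 to -33 and TGTTCT at -27 to -22, and C1qc had them at -193 to -188 and -222 to -217. Cd163 had TGTTCT at -119 to -114 and no GAGGAA.

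Of the 8 resident Kupffer cell genes, 0 fell in knockout livers and 1 rose (Cd163). In wild-type livers 3 fell (Cd5l, Clec4f and Timd4) and 1 rose, again Cd163. Their median change was 0.14 in the knockout and -0.63 in wild type. Cd5l, a secreted scavenger protein that macrophages make to resist death, was at 7.33, 8.01 and 6.98 in knockout dexamethasone livers and 7.51, 7.63 and 7.14 in knockout vehicle livers. In wild-type livers it was at 6.23, 5.85 and 6.79 with dexamethasone and 8.25, 7.75 and 7.52 with vehicle. All wild-type dexamethasone arrays were thus below all other arrays, while the knockout groups overlapped. Its change was 0.01 ± 0.28 (SE) in the knockout (95% interval -0.59 to 0.61, adjusted p = 0.995) and -1.55 ± 0.28 in wild type, 2.92-fold lower (limma adjusted p = 0.00266; -1.48 without the 4 arrays, adjusted p = 0.0581).

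Clec4f, a C-type lectin found on rodent Kupffer cells and on few other cells, was at 7.32, 7.54 and 7.16 in knockout dexamethasone and 7.44, 7.68 and 7.30 in knockout vehicle livers. The wild-type values were 7.10, 6.39 and 6.90 with dexamethasone and 7.55, 7.36 and 7.36 with vehicle. Wild-type dexamethasone 2 was the lowest of all arrays, and the other wild-type dexamethasone arrays were also under every remaining array. Clec4f changed by -0.13 ± 0.17 in the knockout (95% interval -0.49 to 0.22, adjusted p = 0.785) and by -0.63 ± 0.17 in wild type (adjusted p = 0.0259). This call was lost without wild-type vehicle 1, without wild-type dexamethasone 2 and without the 4 arrays, with changes of -0.56, -0.42 and -0.62. Timd4, the phosphatidylserine receptor of long-lived resident macrophages, was at 5.64, 6.25 and 5.41 in knockout dexamethasone and 5.55, 5.67 and 5.51 in knockout vehicle livers. In wild-type livers it was at 4.89, 4.72 and 4.95 with dexamethasone and 6.81, 5.38 and 5.70 with vehicle. Wild-type vehicle 1 was the highest and the wild-type dexamethasone arrays the 3 lowest. Timd4 changed by 0.19 ± 0.29 in the knockout (adjusted p = 0.839) and by -1.11 ± 0.29 in wild type (adjusted p = 0.0244), and the wild-type call was lost without the 4 arrays (-0.90, adjusted p = 0.157). It was also lost on leaving out any 1 of the wild-type dexamethasone arrays, or vehicle array 1, and the change was -1.40 to -0.69 over the 12 arrays left out in turn.

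Vsig4, a complement receptor of the immunoglobulin family that captures opsonised bacteria, was at 8.09, 8.23 and 7.94 in knockout dexamethasone and 8.06, 8.51 and 7.88 in knockout vehicle livers. It was at 7.69, 6.99 and 7.52 in wild-type dexamethasone and 8.48, 7.55 and 8.02 in wild-type vehicle livers. Wild-type vehicle 2 lay within the range of the wild-type dexamethasone arrays, so these groups overlapped. Its changes, -0.06 ± 0.23 in the knockout (95% interval -0.56 to 0.44) and -0.61 ± 0.23 in wild type (95% interval -1.11 to -0.12), did not pass (adjusted p = 0.941 and 0.116). Folr2, the folate receptor of resident macrophages, Siglec1, a sialic acid receptor, and Marco, a scavenger receptor for bacteria, also missed the threshold in both genotypes. In knockout livers Folr2 changed by 0.08 ± 0.22, Siglec1 by 0.37 ± 0.22 and Marco by 1.20 ± 0.63. In wild-type livers Folr2 changed by -0.63 ± 0.22, Siglec1 by -0.27 ± 0.22 and Marco by -1.36 ± 0.63. Marco had the largest SE of the 35 genes. It was at 5.17, 6.68 and 4.85 in knockout dexamethasone and 4.54, 4.65 and 3.92 in knockout vehicle livers. Marco was at 3.90, 3.67 and 4.46 in wild-type dexamethasone and 7.20, 4.70 and 4.19 in wild-type vehicle livers. Wild-type vehicle 1 and knockout dexamethasone 2 stood far above the rest.

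**Figure D2:**
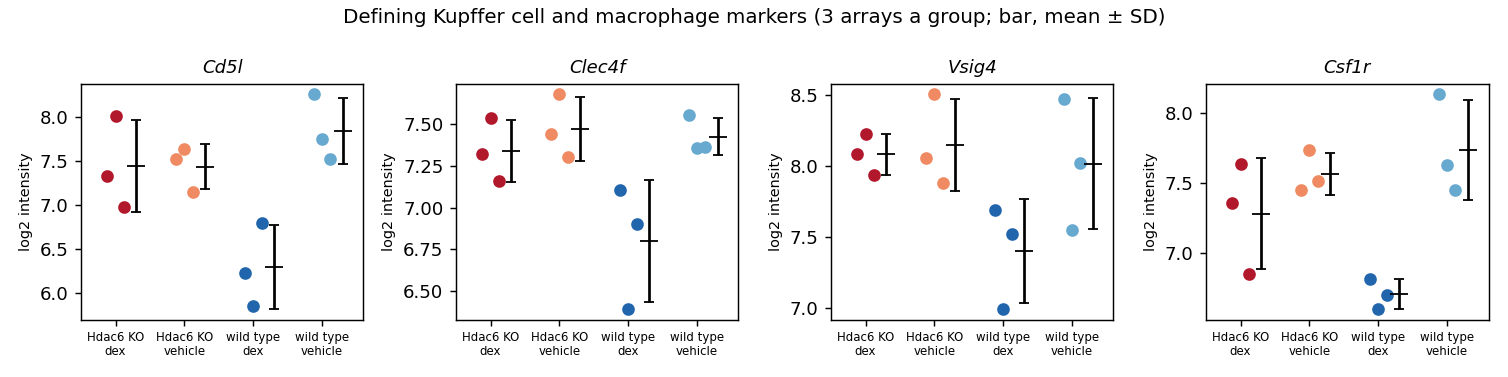
Log2 intensity of Cd5l, Clec4f, Vsig4 and Csf1r in each array (points, 3 per group; bar, mean ± SD), with the groups from left to right as knockout dexamethasone, knockout vehicle, wild-type dexamethasone and wild-type vehicle. The wild-type dexamethasone points lie below the other 3 groups for Cd5l, Clec4f and Csf1r, and within reach of wild-type vehicle for Vsig4.

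Cd163, the haemoglobin scavenger receptor, went the other way. It was at 7.96, 7.99 and 7.34 in knockout dexamethasone livers and 6.41, 6.58 and 6.40 in knockout vehicle livers. Wild-type livers had 7.52, 6.97 and 6.91 with dexamethasone and 5.24, 5.85 and 6.56 with vehicle. In both genotypes every dexamethasone array lay above every vehicle array. The rise was 1.30 ± 0.28 in the knockout (2.46-fold, adjusted p = 0.00963) and 1.25 ± 0.28 in wild type (2.39-fold, adjusted p = 0.00948), with a difference in response of 0.04 ± 0.39 (95% interval -0.80 to 0.89). Without the 4 arrays it was 1.27 in the knockout (adjusted p = 0.0100) and 0.69 in wild type (adjusted p = 0.318).

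The 3 chains of C1q, the first component of the classical complement pathway, are made in liver mainly by Kupffer cells, and their genes C1qb, C1qc and C1qa lie next to each other on chromosome 4. In the knockout 0 of the 3 passed, and all 3 fell in wild-type livers. C1qa was at 7.20, 7.64 and 6.95 in knockout dexamethasone, 7.35, 7.27 and 7.17 in knockout vehicle, 6.86, 6.56 and 6.85 in wild-type dexamethasone and 7.73, 7.27 and 7.25 in wild-type vehicle livers. C1qb was at 7.31, 7.62 and 6.86 in knockout dexamethasone, 7.05, 7.30 and 6.82 in knockout vehicle, 6.80, 6.09 and 6.79 in wild-type dexamethasone and 7.77, 7.26 and 7.10 in wild-type vehicle livers. For both genes the wild-type dexamethasone arrays were the 3 lowest of the 12. C1qc was at 6.95, 7.57 and 6.56 in knockout dexamethasone, 7.00, 7.28 and 6.88 in knockout vehicle, 6.49, 6.31 and 6.56 in wild-type dexamethasone and 7.79, 7.24 and 7.16 in wild-type vehicle livers. Here the wild-type dexamethasone arrays reached up to the lowest knockout dexamethasone array. In the knockout C1qb changed by 0.21 ± 0.23 and C1qc by -0.03 ± 0.22 (adjusted p = 0.759 and 0.973), and C1qa by under 0.01 in size (95% interval -0.37 to 0.37). The wild-type changes were -0.66 ± 0.17 for C1qa, -0.82 ± 0.23 for C1qb and -0.95 ± 0.22 for C1qc (adjusted p = 0.0230, 0.0386 and 0.0142), or -0.54, -0.66 and -0.76 without the 4 arrays, none then past the threshold. All 3 wild-type calls were also lost without wild-type vehicle 1 or without wild-type dexamethasone 2, and that of C1qb without wild-type vehicle 2 or knockout vehicle 1 too. With an array left out they ran from -0.74 to -0.50 for C1qa, from -0.96 to -0.58 for C1qb and from -1.06 to -0.75 for C1qc.

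Of the 10 genes of macrophage lineage and function, 0 passed in the knockout and 7 fell in wild-type livers, with medians of -0.30 in the knockout and -1.12 in wild type. Csf1r, the receptor for the growth factors Csf1 and Il34, was at 7.36, 7.64 and 6.85 in knockout dexamethasone and 7.45, 7.74 and 7.51 in knockout vehicle livers. In wild-type livers it was at 6.82, 6.60 and 6.70 with dexamethasone and 8.14, 7.63 and 7.45 with vehicle. The wild-type dexamethasone arrays were the 3 lowest, just under knockout dexamethasone 3. Csf1r changed by -0.28 ± 0.19 in the knockout (95% interval -0.70 to 0.13, adjusted p = 0.525) and by -1.03 ± 0.19 in wild type, 2.04-fold lower (adjusted p = 0.00363; -0.74 without the 4 arrays, adjusted p = 0.243).

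Msr1, a scavenger receptor for modified lipoproteins, had the smallest p of the 35 genes in wild type. It was at 5.60, 5.76 and 5.0 in knockout dexamethasone and 5.93, 5.98 and 5.67 in knockout vehicle livers. With dexamethasone wild-type livers had 4.53, 4.40 and 4.74, against 5.94, 5.67 and 5.68 with vehicle. The wild-type dexamethasone arrays were below all others, and knockout dexamethasone 1 and 3 were below every vehicle array. Its change was -0.41 ± 0.17 in the knockout (adjusted p = 0.206). In wild type it was -1.21 ± 0.17 (2.31-fold lower, adjusted p = 0.000542), and -1.22 without the 4 arrays, where it still passed (adjusted p = 0.0426). Mpeg1, a pore-forming protein of phagocytes, was at 6.79, 7.46 and 6.20 in knockout dexamethasone and 7.44, 7.38 and 7.09 in knockout vehicle livers. The wild-type arrays had 6.21, 5.50 and 6.14 with dexamethasone and 7.93, 7.19 and 7.24 with vehicle. Knockout dexamethasone 3 lay among the low wild-type dexamethasone arrays and knockout dexamethasone 2 among the vehicle arrays. Mpeg1 changed by -0.48 ± 0.29 in the knockout (adjusted p = 0.436) and by -1.50 ± 0.29 in wild type (adjusted p = 0.00402; -1.38 without the 4 arrays, adjusted p = 0.153).

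Adgre1, the adhesion receptor behind the classical surface antigen of mouse macrophages, was at 5.83, 6.40 and 5.24 in knockout dexamethasone and 6.29, 6.43 and 5.90 in knockout vehicle livers. Wild-type livers had 4.86, 4.87 and 5.29 with dexamethasone and 7.57, 5.86 and 5.97 with vehicle. Wild-type vehicle 1 exceeded every other array by over 1. The changes were -0.38 ± 0.38 in the knockout (adjusted p = 0.716) and -1.46 ± 0.38 in wild type (adjusted p = 0.0246). The wild-type change did not pass without the 4 arrays (-1.11, adjusted p = 0.163), nor without any 1 of dexamethasone arrays 1 and 2 and vehicle array 1 of wild type, and it was -1.77 to -0.91 with each array left out in turn. Lyz2, the lysozyme of myeloid cells, was at 7.49, 7.73 and 6.84 in knockout dexamethasone and 7.88, 8.36 and 7.82 in knockout vehicle livers. In wild-type livers Lyz2 was at 6.92, 6.54 and 7.05 with dexamethasone and 9.09, 8.02 and 7.77 with vehicle. Each genotype's dexamethasone arrays lay below its vehicle arrays. Lyz2 changed by -0.67 ± 0.30 in the knockout, where it missed the threshold (adjusted p = 0.258), and by -1.46 ± 0.30 in wild type (adjusted p = 0.00685; -1.04 without the 4 arrays, adjusted p = 0.168).

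Cd68, a glycoprotein of macrophage lysosomes, was at 5.43, 5.87 and 5.28 in knockout dexamethasone and 5.32, 5.45 and 5.19 in knockout vehicle livers. Its wild-type values were 4.75, 4.56 and 5.10 with dexamethasone and 5.87, 5.56 and 5.44 with vehicle. All wild-type dexamethasone arrays were below the other 9, and knockout dexamethasone 2 shared the top with wild-type vehicle 1. It changed by 0.21 ± 0.17 in the knockout (adjusted p = 0.625) and -0.82 ± 0.17 in wild type (adjusted p = 0.00636; -0.79 without the 4 arrays, adjusted p = 0.112). Aif1, the calcium-binding protein Iba1 of macrophages and microglia, was at 3.61, 3.67 and 3.10 in knockout dexamethasone and 3.72, 3.66 and 3.94 in knockout vehicle livers. Wild-type values of Aif1 were 3.38, 3.15 and 2.97 with dexamethasone and 4.87, 4.17 and 4.12 with vehicle. Knockout dexamethasone 3 was as low as the wild-type dexamethasone arrays. Aif1 changed by -0.31 ± 0.20 in the knockout (adjusted p = 0.475) and -1.22 ± 0.20 in wild type (adjusted p = 0.00139; -0.85 without the 4 arrays, adjusted p = 0.0935). The other 3 genes missed the threshold in both genotypes. Mrc1, the mannose receptor, which sinusoidal endothelium also makes, changed by -0.07 ± 0.16 in the knockout and -0.44 ± 0.16 in wild type. Spi1, which encodes PU.1, changed by -0.04 ± 0.20 in the knockout and -0.38 ± 0.20 in wild type. Ms4a7 was at 1.90 to 2.22 in knockout dexamethasone and 1.93 to 2.06 in wild-type dexamethasone livers, around the arrays' 20th percentiles of 2.17 to 2.23.

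**Figure D3:**
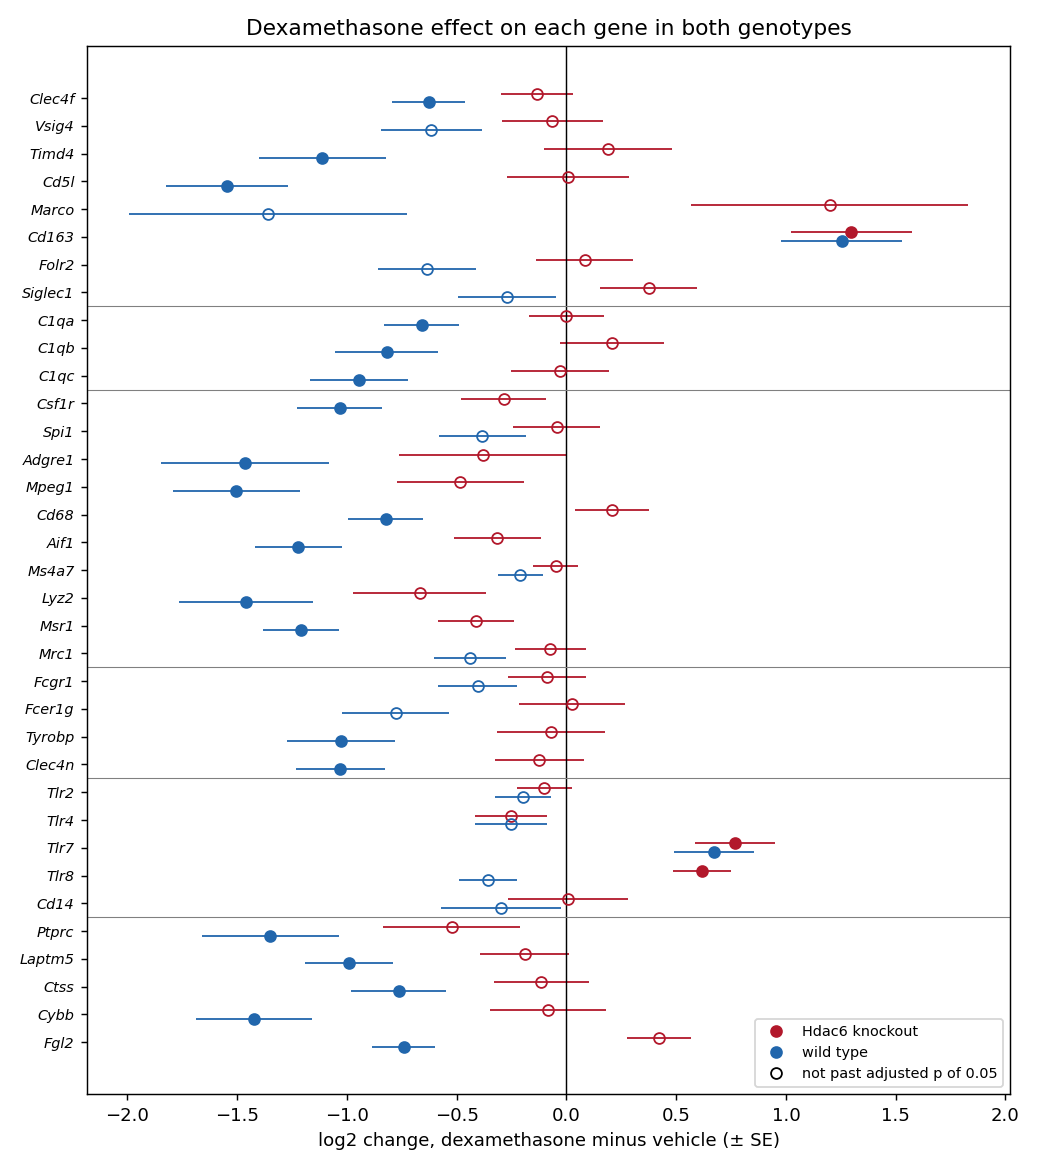
Dexamethasone minus vehicle change (log2, ± SE) of each of the 35 genes in Hdac6 knockout and in wild-type livers, by role; filled circles passed an adjusted p of 0.05 and open circles did not. Most wild-type points lie to the left of the knockout points, and Cd163 and Tlr7 lie to the right of 0 in both.

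The next 4 genes encode an Fc receptor, the gamma chain of Fc receptors, the adaptor DAP12 and the lectin dectin-2. Of these, 0 passed in the knockout and 2 fell in wild-type livers (Tyrobp and Clec4n). Tyrobp, the adaptor DAP12, was at 5.46, 5.92 and 5.29 in knockout dexamethasone and 5.52, 5.76 and 5.60 in knockout vehicle livers. In wild-type livers it was at 5.06, 4.38 and 5.56 with dexamethasone and 6.26, 6.07 and 5.75 with vehicle. Wild-type dexamethasone 3, an array with pancreas transcripts, lay in the range of the knockout arrays, and wild-type dexamethasone 2 far below it. Tyrobp changed by -0.07 ± 0.25 in the knockout (adjusted p = 0.940) and -1.03 ± 0.25 in wild type (adjusted p = 0.0155; -1.03 without the 4 arrays, adjusted p = 0.134). Its wild-type call was lost without dexamethasone array 2 or without vehicle array 1 of wild type (-1.31 to -0.71 with each array left out in turn). Clec4n, the lectin dectin-2, was at 3.07, 2.93 and 2.70 in knockout dexamethasone and 3.08, 3.16 and 2.84 in knockout vehicle livers. Its levels in wild-type livers were 2.60, 2.33 and 2.64 with dexamethasone and 4.13, 3.36 and 3.17 with vehicle. The wild-type dexamethasone values were the 3 lowest and lay near the arrays' 20th percentiles. Clec4n changed by -0.12 ± 0.20 in the knockout (adjusted p = 0.855) and -1.03 ± 0.20 in wild type (adjusted p = 0.00473; -0.71 without the 4 arrays, adjusted p = 0.0837). Fcer1g, the common gamma chain of Fc receptors, changed by 0.03 ± 0.24 in the knockout and by -0.78 ± 0.24 in wild type, just short of the threshold (adjusted p = 0.978 and 0.0571). The high-affinity IgG receptor Fcgr1 changed by -0.09 ± 0.18 in the knockout and by -0.40 ± 0.18 in wild type (adjusted p = 0.880 and 0.187).

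Of the 5 genes of leukocytes, lysosomes and the phagocyte oxidase, 0 passed in the knockout and all 5 fell in wild-type livers. Cybb, the catalytic subunit of the NADPH oxidase that makes superoxide in phagosomes, was at 6.76, 7.06 and 6.14 in knockout dexamethasone and 6.70, 6.78 and 6.73 in knockout vehicle livers. Cybb in wild-type livers was at 5.36, 5.06 and 5.41 with dexamethasone and 7.41, 6.36 and 6.33 with vehicle. The wild-type dexamethasone arrays were the 3 lowest by a clear margin. Cybb changed by -0.08 ± 0.26 in the knockout (95% interval -0.65 to 0.49, adjusted p = 0.931) and -1.42 ± 0.26 in wild type, 2.68-fold lower (adjusted p = 0.00333; -1.12 without the 4 arrays, adjusted p = 0.102). Laptm5, a lysosomal membrane protein of blood cells, was at 6.39, 6.95 and 6.24 in knockout dexamethasone and 6.59, 6.70 and 6.85 in knockout vehicle livers. Laptm5 read 5.85, 5.90 and 6.10 in wild-type dexamethasone and 7.11, 7.24 and 6.46 in wild-type vehicle livers. The wild-type vehicle array without pancreas transcripts, number 3, was the lowest of its group, yet above all wild-type dexamethasone arrays. Laptm5 changed by -0.19 ± 0.20 in the knockout (adjusted p = 0.736) and -0.99 ± 0.20 in wild type (adjusted p = 0.00589; -0.59 without the 4 arrays, adjusted p = 0.313).

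Ptprc, the common leukocyte antigen CD45, was at 4.36, 4.41 and 3.86 in knockout dexamethasone and 4.81, 4.93 and 4.47 in knockout vehicle livers. In wild-type livers Ptprc was at 3.54, 3.23 and 3.66 with dexamethasone and 5.79, 4.36 and 4.31 with vehicle. Dexamethasone arrays lay below vehicle arrays in each genotype, and wild-type vehicle 1 was the highest by far. Ptprc changed by -0.52 ± 0.31 in the knockout, which did not pass (adjusted p = 0.439), and -1.35 ± 0.31 in wild type (adjusted p = 0.0129; -0.93 without the 4 arrays, adjusted p = 0.0760). Its wild-type call was lost without wild-type dexamethasone 2 (-1.60 to -0.86 with each array left out in turn). Ctss, the lysosomal protease cathepsin S of antigen-presenting cells, was at 7.62, 8.02 and 7.06 in knockout dexamethasone and 7.77, 7.75 and 7.51 in knockout vehicle livers. It was at 6.90, 6.85 and 6.88 in wild-type dexamethasone and 8.04, 7.26 and 7.62 in wild-type vehicle livers. The wild-type dexamethasone arrays were nearly equal and the lowest of the 12. Ctss changed by -0.11 ± 0.22 in the knockout (adjusted p = 0.876) and -0.76 ± 0.22 in wild type (adjusted p = 0.0364; -0.75 without the 4 arrays, adjusted p = 0.289). This wild-type call was lost on leaving out any 1 of the wild-type dexamethasone arrays, or vehicle array 1 or 3, with changes of -0.95 to -0.56 over the 12 arrays left out in turn.

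Fgl2, a membrane prothrombinase of macrophages that also exists as a secreted regulator of T cells, was the member with the smallest interaction p. It was at 3.75, 3.77 and 3.73 in knockout dexamethasone livers and 3.43, 3.27 and 3.28 in knockout vehicle livers. It was at 3.24, 3.23 and 3.02 in wild-type dexamethasone livers and 4.29, 3.59 and 3.84 in wild-type vehicle livers. In the knockout every dexamethasone array lay above every vehicle array, and in wild type every one lay below. The changes were 0.42 ± 0.14 in the knockout, short of the threshold (adjusted p = 0.102), and -0.74 ± 0.14 in wild type (adjusted p = 0.00437; -0.60 without the 4 arrays, where it still passed with an adjusted p of 0.0481). Without those arrays the knockout rise was 0.40 and passed too (adjusted p = 0.0493), as it did without wild-type vehicle 1 or 2 alone. The difference in response was 1.16 ± 0.20 (unadjusted p = 6.91e-05, adjusted p = 0.250).

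Of the 5 genes of Toll-like receptor sensing, 2 rose in the knockout (Tlr7 and Tlr8), 1 rose in wild type (Tlr7), and 0 fell in either. Their levels were low, with Tlr4, Tlr7, Tlr8 and Cd14 all averaging under the arrays' medians of 3.13 to 3.24. Tlr7, an endosomal receptor for single-stranded RNA, was at 3.21, 3.74 and 2.98 in knockout dexamethasone and 2.31, 2.65 and 2.67 in knockout vehicle livers. In wild-type livers Tlr7 was at 3.44, 2.97 and 3.08 with dexamethasone and 2.49, 2.37 and 2.62 with vehicle. Dexamethasone arrays exceeded vehicle arrays in both genotypes. Tlr7 rose by 0.77 ± 0.18 in the knockout (adjusted p = 0.0175; 0.83 without the 4 arrays, adjusted p = 0.0737) and by 0.67 ± 0.18 in wild type (adjusted p = 0.0283; 0.59 without the 4 arrays, adjusted p = 0.426). With each array left out in turn the change of Tlr7 was 0.55 to 0.93 in the knockout, short of the threshold without knockout vehicle 1 or knockout dexamethasone 2. In wild type the change was then 0.53 to 0.77, short of it on leaving out either vehicle array 1 or 2 or dexamethasone array 1 or 3 of that genotype. Tlr8, its neighbour on the X chromosome and another RNA sensor, was at 3.08, 3.21 and 3.10 in knockout dexamethasone and 2.36, 2.68 and 2.49 in knockout vehicle livers. Tlr8 was at 2.56, 2.12 and 2.33 in wild-type dexamethasone and 2.92, 2.57 and 2.58 in wild-type vehicle livers. The knockout dexamethasone arrays were the 3 highest, and the wild-type dexamethasone arrays lay below wild-type vehicle. Tlr8 changed by 0.62 ± 0.13 in the knockout (adjusted p = 0.00951) and by -0.36 ± 0.13 in wild type, which did not pass (adjusted p = 0.107), and the difference in response was 0.98 ± 0.19 (adjusted p = 0.264). Without the 4 arrays the knockout change was 0.61 and missed the threshold (adjusted p = 0.0504).

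Cd14, the co-receptor for lipopolysaccharide, was at 3.29, 2.66 and 2.65 in knockout dexamethasone, 2.86, 3.20 and 2.51 in knockout vehicle, 2.84, 2.62 and 2.51 in wild-type dexamethasone and 3.67, 2.72 and 2.47 in wild-type vehicle livers. All 4 groups overlapped, with changes of 0.01 ± 0.27 in the knockout and -0.30 ± 0.27 in wild type. The lipopeptide receptor Tlr2 changed by -0.10 ± 0.13 in the knockout and -0.20 ± 0.13 in wild type, and the lipopolysaccharide receptor Tlr4 by -0.25 ± 0.16 in the knockout and -0.25 ± 0.16 in wild type, none past the threshold.

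**Figure D4:**
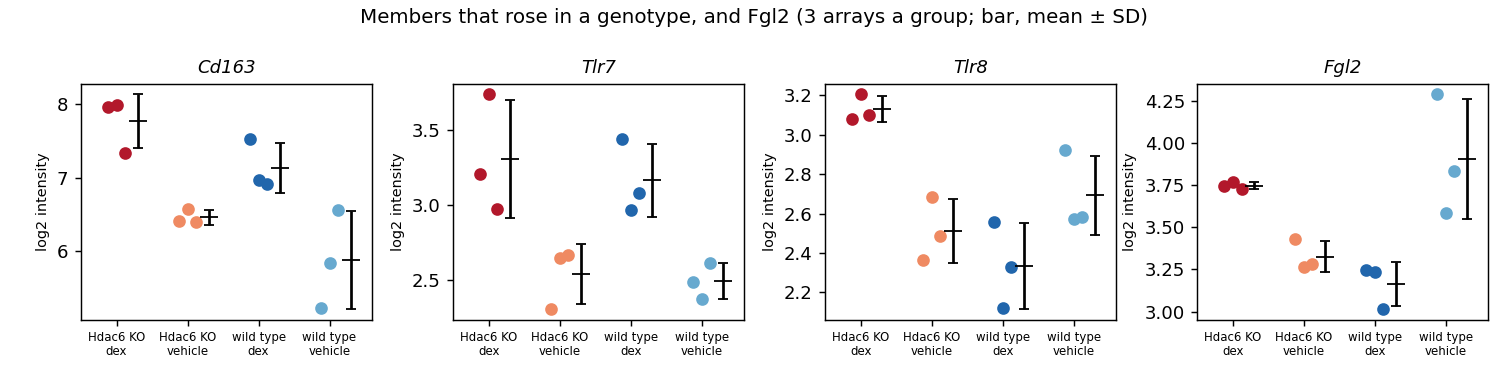
Log2 intensity in each array (points, 3 per group; bar, mean ± SD) of genes that rose with dexamethasone or moved apart between genotypes, with groups from left to right as knockout dexamethasone, knockout vehicle, wild-type dexamethasone and wild-type vehicle. Cd163 and Tlr7 are higher with dexamethasone in both genotypes, and for Fgl2 and Tlr8 the dexamethasone points lie above vehicle in the knockout and below vehicle in wild type.

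Knockout and wild-type livers were then compared under the same treatment. Under dexamethasone 0 of the 35 genes passed (0.0279% of all genes did). At an unadjusted p under 0.05, 24 of the 35 were higher in the knockout and 0 lower, where 4.88% and 3.87% of all genes were. For 18 genes every knockout array exceeded every wild-type array, where 6.90% of all genes showed that. The median difference was 0.58, with 34 of 35 positive (all 8 resident genes, median 0.66, and 26 of 27 general ones, median 0.57). The smallest adjusted p-values were 0.1003 for Tlr8 (0.79 ± 0.13) and 0.133 for Cybb (1.38 ± 0.26) and Msr1 (0.90 ± 0.17). Cd5l, at 7.44 ± 0.52 (SD, n = 3) in knockout dexamethasone and 6.29 ± 0.47 in wild-type dexamethasone livers, differed by 1.14 ± 0.28 (adjusted p = 0.233). Of the 4 arrays with pancreas transcripts only wild-type dexamethasone 3 is in this pair of groups; without the 4, 26 genes were higher at an unadjusted p under 0.05 and the median was 0.63. The count was 10 without knockout dexamethasone 2 and 11 without wild-type dexamethasone 2. Under vehicle 0 of the 35 passed (0.101% of all genes did), 3 were lower in the knockout at an unadjusted p under 0.05 (Aif1, Clec4n and Fgl2; 3.93% of all genes were lower at that level, and 7.19% differed in either direction), and the median was -0.15, or 0.06 without the 4 arrays. These comparisons share arrays with the dexamethasone comparisons and with the interaction, so the values are not separate evidence.

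The resident genes and the general myeloid genes were set side by side in each group. The mean level of the 8 resident genes was 6.21 to 7.04 in knockout dexamethasone arrays, 6.03 to 6.40 in knockout vehicle, 5.45 to 5.96 in wild-type dexamethasone and 6.13 to 6.80 in wild-type vehicle arrays. For the 27 general genes it was 4.85 to 5.44 in knockout dexamethasone, 5.16 to 5.35 in knockout vehicle, 4.45 to 4.74 in wild-type dexamethasone and 5.20 to 5.81 in wild-type vehicle arrays. In both sets the wild-type dexamethasone arrays were the 3 lowest of the 12. Among knockout dexamethasone arrays, number 2 was the highest of its group for 29 of the 35 genes and number 3 the lowest for 33. Wild-type vehicle 1 was the highest of its group for 28, and wild-type dexamethasone 2 the lowest of its group for 28. Animals of a group thus differed along most of the list, and the 35 genes share the same 12 animals.

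**Figure D5:**
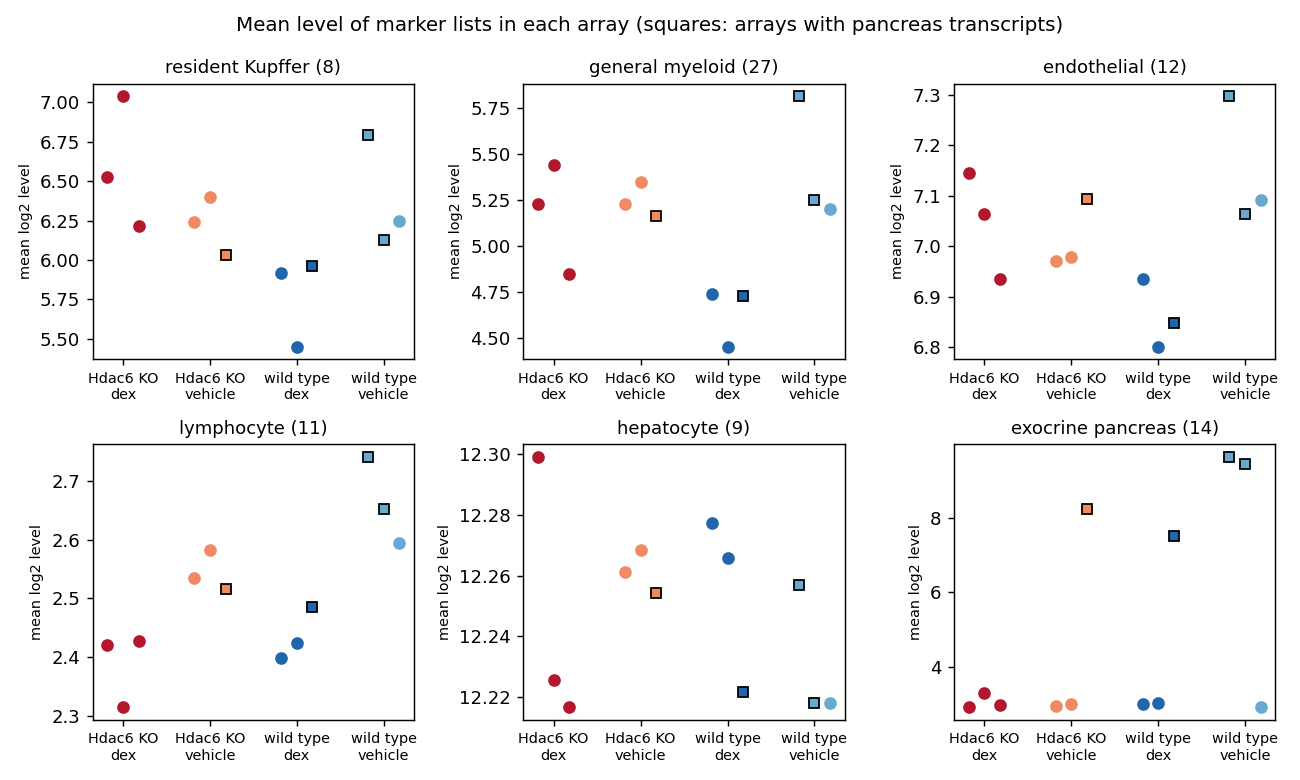
Mean log2 level per array of resident Kupffer cell genes, general myeloid genes and marker lists of other liver cell types (points; squares are the 4 arrays with pancreas transcripts), by group from knockout dexamethasone on the left to wild-type vehicle on the right. The resident and general macrophage lists are lowest in wild-type dexamethasone arrays, and the hepatocyte list, drawn on a narrow axis, spans 12.22 to 12.30.

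Wild-type vehicle 1 and wild-type dexamethasone 2 bore most on the wild-type counts. Leaving out each of the 12 arrays in turn kept 11 of the 20 lowered genes past the threshold every time: Aif1, Cd5l, Cd68, Clec4n, Csf1r, Cybb, Fgl2, Laptm5, Lyz2, Mpeg1 and Msr1. Fcer1g, Fcgr1, Folr2, Mrc1 and Vsig4 missed the threshold in wild type with all arrays and passed it with some array left out. Without the 4 arrays with pancreas transcripts 2 members passed in wild type, Msr1 and Fgl2, both lower, with 1 wild-type vehicle array left. The median change was then -0.66 and 32 of 35 changes were negative. For 31 genes that 1 vehicle array lay above both remaining wild-type dexamethasone arrays, where 38.4% of all genes showed that. In the knockout Cd163 and Fgl2 passed, and the median was -0.09. Whether the pancreas transcripts had a part in the wild-type result was not tested.

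Markers of other cells were read on the same arrays. Of 12 endothelial genes, 4 fell and 1 rose in knockout livers, and 6 fell and 1 rose in wild-type livers. Of all genes, 3.92% fell and 4.38% rose in the knockout, and 6.95% fell and 4.57% rose in wild type. The knockout minus wild-type difference in response was positive for all 12 endothelial genes (median 0.29), and 0 passed. At an unadjusted p under 0.05 in the limma fit, 4 of them differed (3.42% of all genes in that direction). Under dexamethasone the knockout minus wild-type difference was positive for all 12 (median 0.16, 3 at that level). Kdr, the main receptor for vascular endothelial growth factor, fell by 1.04 in the knockout and by 1.24 in wild type, and Lyve1, a hyaluronan receptor of sinusoids, rose by 2.62 in the knockout and by 1.80 in wild type. The mean endothelial level was 6.94 to 7.14 in knockout dexamethasone, 6.97 to 7.09 in knockout vehicle, 6.80 to 6.93 in wild-type dexamethasone and 7.06 to 7.30 in wild-type vehicle arrays. Among stellate cell genes, 1 of 10 fell (Pdgfrb) and 1 rose (Hand2) in the knockout, and 2 fell (Pdgfrb and Col3a1) and 1 rose (Hand2) in wild type. Of 9 lymphocyte genes tested, 0 passed in the knockout and 3 B cell genes fell in wild type (Cd79b by 0.60, Cd79a by 0.59 and Ms4a1 by 0.30). These are low levels. In wild-type dexamethasone arrays Ms4a1 was at 2.12 to 2.17 and Cd79a at 1.93 to 2.26, near the arrays' 20th percentiles of 2.17 to 2.23. Cd79b was there at 2.60 to 2.78, below the arrays' medians. None of 7 monocyte, 10 neutrophil, 8 dendritic cell or 9 hepatocyte genes tested passed in either genotype. Mean levels in all arrays were 2.50 to 2.72 for monocyte genes and 2.40 to 2.55 for neutrophil genes, below the arrays' medians, and Ccr2, which marks recruited monocytes, was at 2.00 to 2.27. The part of endothelial and B cell genes in the macrophage result was not tested.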

How the data were processed

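Affymetrix whole-transcript arrays measured liver RNA of 12 mice, 1 array per animal. The deposited values are log2 intensities, made by the authors in R 2.10.0 with affy, per the submitters' processing notes; how they were normalised is not given in the sources. After sorting each array, no value lay more than 0.215 from the mean of its rank. Gene symbols came from the probe annotation of the platform: of 34760 probe sets, 21640 carried 1 symbol, 1321 several and 11799 none. A gene was tested if it exceeded its array's 20th percentile in at least 3 of the 12 arrays.

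One model of 4 group means covered the 12 arrays (limma 3.58.1, R 4.3.3), with 8 residual and 5.07 prior degrees of freedom. Benjamini-Hochberg adjustment of p-values ran over 17904 genes. Errors of changes are SE, errors of levels SD. Intervals are 95% intervals from that fit. The number of arrays limits the precision. The fit was tested on simulated data. The alternatives were the level filter, the scaling, an intensity trend in the variance, array weights, the lowest-mean probe set and the replicate number as a block. Others were the groups in the fit, each array left out, and, chosen after seeing the data, the 4 arrays with pancreas transcripts left out. The members and marker lists were chosen with earlier results of these data known.

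Values in every array are given, by rule, for Cd5l, Clec4f, Vsig4 and Csf1r, for members that passed in any comparison and for the 2 members of each role with the smallest interaction p; Marco was added after its values were seen. Of other lists up to 4 genes with the smallest p are named, with Hdac6 and Fkbp5; Ccr2 was chosen after its values were seen. Promoter windows are RefSeq's (GRCm38.p6).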

Additional observations from a re-analysis of the deposited data

Results flagged for a closer look

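Fgl2 and Tlr8 moved in opposite directions in the genotypes, with every dexamethasone array above every vehicle array of the knockout and every one below in wild type. No other gene of the set described in the Results showed this. Of all genes, 11.7% lay above in that way in the knockout and 14.5% lay below in wild type. The share of all genes that did both is not given. Whether the pattern is unusually frequent in the set was therefore not tested. The knockout minus wild-type difference in response was 1.16 for Fgl2 and 0.98 for Tlr8 on the log2 scale. Tested as an interaction in limma, neither passed (adjusted p = 0.250 and 0.264). Without the 4 arrays with pancreas transcripts the difference was 1.00 for Fgl2 and 0.85 for Tlr8. Tlr8 averaged 2.67 over the arrays, below their medians of 3.13 to 3.24.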

How the results depend on the processing

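The direction of the median change in wild type was the same under all 22 alternatives. That of the interaction was the same in every alternative that fitted it, which excludes fitting only the groups compared. Some alternatives could not alter these medians by design. Dropping the level filter or blocking on replicate number could change neither. Fitting only the groups compared or leaving out a knockout array could not change the wild-type median. The cause of the differences below was not tested. Members past the threshold with dexamethasone in wild type numbered 13 to 23 when 1 array was left out (13 on leaving out wild-type vehicle 1, and as many on leaving out wild-type dexamethasone 2), and 2 without the 4 arrays with pancreas transcripts, where 1 wild-type vehicle array remained and its spread is assumed to be that of the other groups. The count in the knockout was 2 to 4. Between genotypes under dexamethasone it was 0 to 2, with Cybb passing without wild-type vehicle 1, and Cybb and Msr1 without knockout dexamethasone 3; at an unadjusted p under 0.05 it was 10 to 29. Under vehicle the unadjusted count was 1 to 6 with an array left out and 5 with only those groups fitted. The unadjusted interaction count was 15 to 24, and 7 without the 4 arrays. The median change with an array left out was -0.91 to -0.56 in wild type, -0.14 to 0.07 in the knockout, 0.40 to 0.77 between genotypes under dexamethasone, -0.26 to 0.03 under vehicle and 0.55 to 0.99 for the interaction. Interactions near 0 changed sign with an array left out, that of Cd163 ranging from -0.29 to 0.37 and that of Tlr7 from -0.12 to 0.26. With the replicate number as a block 23 members passed in wild type (21 lower), 3 in the knockout and 0 otherwise, and 19 and 22 had an unadjusted p under 0.05 in the interaction and between genotypes under dexamethasone. After each gene's group mean was subtracted, same-numbered arrays of compared groups correlated at -0.54 to 0.098, so the numbers were not taken as pairs. Scaling alternatives moved the median of all genes by under 0.1.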

Other observations

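A further list held 14 genes linked to Kupffer cell identity and iron or lipid handling, of which 13 were tested. In knockout livers 2 of them fell past the threshold (Id3 and Zeb2) and 1 rose (Maf), and in wild-type livers 3 fell (Zeb2, Hmox1 and Irf8) and 0 rose. Of all genes, 3.92% fell and 4.38% rose in the knockout, and 6.95% fell and 4.57% rose in wild type. The list did not move as a whole in wild type, where 8 changes were negative and 5 positive. At an unadjusted p under 0.05 in the limma fit, 5 genes were lower there and 3 higher, where 2449 and 1784 of all 17904 genes were. Every wild-type dexamethasone array lay below every wild-type vehicle array for 5 genes and above for 1, Maf. Of all 17904 genes, 2594 lay below in that way and 2236 above. Zeb2, a transcription factor that maintains tissue macrophage identity and is also made by endothelium and stellate cells, fell in both genotypes. It was at 4.42, 4.24 and 3.90 in knockout dexamethasone and 4.96, 4.87 and 5.17 in knockout vehicle livers, and at 4.17, 4.15 and 4.07 in wild-type dexamethasone and 5.61, 4.90 and 4.91 in wild-type vehicle livers, with changes of -0.81 ± 0.18 (SE, adjusted p = 0.0117) in the knockout and -1.01 ± 0.18 (adjusted p = 0.00232) in wild type. Each genotype's dexamethasone arrays lay below its vehicle arrays.

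Hmox1, the haem oxygenase that breaks down haem from old red cells, was at 6.28, 6.29 and 5.53 in knockout dexamethasone and 6.12, 6.55 and 6.29 in knockout vehicle livers, and at 4.99, 5.21 and 5.50 in wild-type dexamethasone and 6.81, 6.25 and 6.09 in wild-type vehicle livers. The wild-type dexamethasone arrays were the 3 lowest, with knockout dexamethasone 3 just above them. Hmox1 changed by -0.29 ± 0.23 in the knockout (adjusted p = 0.605) and by -1.15 ± 0.23 in wild type (adjusted p = 0.00467). Id3, a regulator needed for Kupffer cell development that other liver cells also make, was at 4.69, 4.63 and 4.04 in knockout dexamethasone and 5.96, 6.20 and 6.34 in knockout vehicle livers, and at 5.52, 5.53 and 5.02 in wild-type dexamethasone and 5.99, 6.18 and 5.23 in wild-type vehicle livers. It fell by 1.71 in the knockout (adjusted p = 0.000422) and changed by -0.44 ± 0.24 in wild type (adjusted p = 0.295). The difference between the genotypes' responses did not pass for any gene of this list. It was positive for 11 of the 13 and negative for 2, with the lowest, -1.27, for Id3. At an unadjusted p under 0.05 in the limma fit, 1 gene differed in each direction, where 6.19% of all genes differed in either. Of 5 genes for growth factors of macrophages and granulocytes and their receptors, 0 passed in either genotype, and Csf1 changed by -0.21 ± 0.13 in the knockout and -0.37 ± 0.13 in wild type (adjusted p = 0.454 and 0.0783).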
